A study of Mus musculus with 8 samples.

Results

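GABA is the main inhibitory transmitter of the adult brain, and 28 genes for its receptors, its synthesis and handling, and the interneurons that release it were followed in 8 RNA-seq libraries of mouse brain. The genes were chosen by name, and all 28 were found, once each, in both deposited tables, which list 54532 genes for the PTS + RS and RS libraries and 28229 genes for the RGFP109 and vehicle libraries. They comprise 9 subunits of the GABA-A receptor, 2 subunits of the GABA-B receptor, 2 proteins of the inhibitory postsynapse, 5 genes of GABA synthesis, transport and breakdown, 3 proteins used as interneuron markers, 5 transcription factors of interneuron development and 2 surface or secreted proteins of interneurons. All 28 passed the filter on low counts in each comparison.

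The GABA-A receptor is a chloride channel of 5 subunits, and its alpha and gamma or delta subunits decide whether it sits at the synapse or outside it and how it answers to benzodiazepines. The GABA-B receptor is a slow, G protein-coupled pair of Gabbr1 and Gabbr2. GABA is made from glutamate by Gad1 and Gad2, loaded into vesicles by Slc32a1, taken back up by transporters such as Slc6a11 and broken down by Abat. Cortical interneurons of the parvalbumin class arise under Lhx6 and Sox6, whereas the Dlx factors act in GABAergic neurons more broadly and stay on in the olfactory bulb, where calretinin (Calb2) and reelin (Reln) are also abundant. The amygdala, a hub of fear and anxiety, is under strong GABAergic control.

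All mice were male C57BL/6 and all groups had restraint stress. The RS group (2 libraries) had restraint stress without stroke, and the PTS + RS group (2 libraries) also had a photothrombotic stroke, in which light and a dye close vessels of the cortex. A further 2 libraries came from PTS + RS mice given RGFP109 subcutaneously at 60 mg/kg once per day. Another 2 came from PTS + RS mice that the labels call NaCl controls and the study calls vehicle. RGFP109 is used by the study as an HDAC3 inhibitor, and its discussion calls it selective for the histone deacetylases HDAC1 and HDAC3. The labels give Day 21 for all libraries and cortex as the tissue for all PTS + RS and RS libraries, cortex for replicate 1 of RGFP109 and of vehicle, and amygdala for replicate 2 of both. The mice of the open-field test were about 3 months old, by the methods, which do not say separately how old the sequenced mice were. Whether a library holds 1 mouse or a pool is not given in the sources used here, so the spread between replicates may be partly technical. The library totals, as counts on genes, ran from 15902013 to 21712033. The unit is CPM, a count per library size scaled by TMM within a table, except where FPKM, which also divides by gene length, is named.

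The tissue labels were set against marker genes before the results. Vehicle replicate 1, labelled cortex, stood apart: its summed level of 10 olfactory bulb genes was 1907 CPM against 155 to 169 CPM in the other 7 libraries, and its 12 cortical excitatory genes summed to 2629 CPM against 4754 to 6367 CPM. In the amygdala-labelled pair 10 striatal genes summed to 1143 and 1271 CPM against 130 to 206 CPM elsewhere. The 12 amygdala genes summed to 606 and 655 CPM in that pair and to 1046 CPM in vehicle replicate 1. Such a sum follows its most abundant genes and does not rank libraries over the whole list. Meis2, on the amygdala list, had a mean of 388 CPM (SD 339) in the vehicle group against means of 47.9 to 103 CPM in the other groups. In the cortex-labelled libraries other than vehicle replicate 1 the amygdala genes summed to 450 to 556 CPM. A list of 10 hippocampal genes, added after the data were seen, summed to 739 to 1079 CPM in those 5 cortex-labelled libraries and to 230 to 263 CPM in the other 3. Choroid plexus genes ranged from 15 CPM in RGFP109 replicate 2 to 3853 CPM in RS replicate 2, and were at 47 CPM in PTS + RS replicate 2. No tissue other than the labelled one is assigned here, and fold changes that rest on vehicle replicate 1 are given with and without it.

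**Figure D1:**
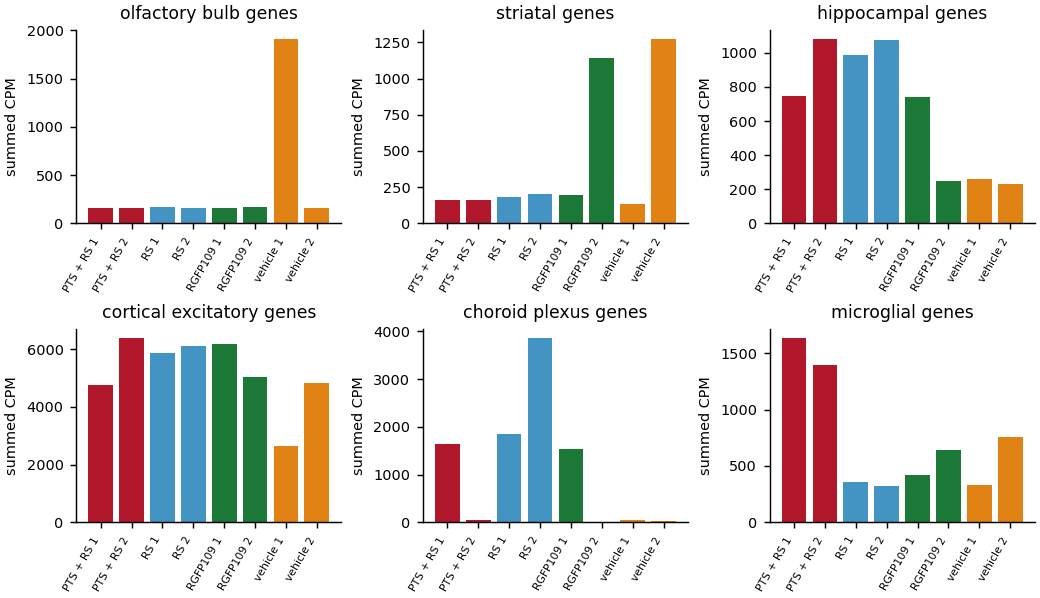
Summed CPM of 6 marker lists (vertical axis, linear from 0) in each of the 8 libraries (horizontal axis), coloured by group. Vehicle replicate 1 is high for olfactory bulb genes at 1907 CPM, the replicate 2 pair is high for striatal genes, and the 2 PTS + RS libraries are high for microglial genes at 1631 and 1397 CPM.

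Promoter windows of 300 bases, 250 before and 50 after the start of transcription, were read from RefSeq for 23 of the 28 genes on GRCm38.p6. Shown are those of 5 genes that the results below turn on. Gad1 and Dlx1 were highest in vehicle replicate 1, and Gabra5 was lowest in the amygdala-labelled pair. Gabra4 and Gabrb1 lie head to head, and their ends overlap by 196 bases in the deposited gene models. The RefSeq starts used for the windows do not all match those models. The deposited Gad1 and Dlx1 models start at 70553072 and 71528113, before their windows, and the Gabrb1 model at 71658113, after its window. The windows, each written 5′ to 3′ on the strand of its gene, are chr2:70561879-70562178 (+), chr2:71529195-71529494 (+), chr7:57510010-57510309 (-), chr5:71658259-71658558 (-) and chr5:71657671-71657970 (+). Capitals mark the GC box GGGCGG, a letter string that Sp1-type factors bind, and the TATA box TATAAA, each on either strand.
Gad1: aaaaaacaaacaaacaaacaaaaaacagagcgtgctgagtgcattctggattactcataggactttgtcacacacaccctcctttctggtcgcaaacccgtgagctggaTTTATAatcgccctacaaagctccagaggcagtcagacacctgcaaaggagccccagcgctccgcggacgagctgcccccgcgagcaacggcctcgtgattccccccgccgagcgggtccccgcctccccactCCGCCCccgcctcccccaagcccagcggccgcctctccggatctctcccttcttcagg
Dlx1: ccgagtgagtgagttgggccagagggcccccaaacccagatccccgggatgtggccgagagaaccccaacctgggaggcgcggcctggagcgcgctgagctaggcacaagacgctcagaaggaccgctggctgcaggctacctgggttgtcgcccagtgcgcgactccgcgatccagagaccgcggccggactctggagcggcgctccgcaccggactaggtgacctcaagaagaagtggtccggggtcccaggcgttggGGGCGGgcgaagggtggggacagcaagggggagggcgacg
Gabra5: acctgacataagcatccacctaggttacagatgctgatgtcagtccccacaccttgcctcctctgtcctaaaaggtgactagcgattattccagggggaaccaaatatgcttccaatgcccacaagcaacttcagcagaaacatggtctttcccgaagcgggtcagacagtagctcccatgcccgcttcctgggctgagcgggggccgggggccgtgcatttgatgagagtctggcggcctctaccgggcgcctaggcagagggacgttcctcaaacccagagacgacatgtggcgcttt
Gabra4: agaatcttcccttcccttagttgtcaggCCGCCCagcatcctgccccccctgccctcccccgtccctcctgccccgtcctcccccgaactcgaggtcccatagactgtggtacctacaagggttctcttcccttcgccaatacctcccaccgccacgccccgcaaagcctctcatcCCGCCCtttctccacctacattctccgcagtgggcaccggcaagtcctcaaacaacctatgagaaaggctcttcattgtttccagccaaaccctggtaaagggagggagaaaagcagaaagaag
Gabrb1: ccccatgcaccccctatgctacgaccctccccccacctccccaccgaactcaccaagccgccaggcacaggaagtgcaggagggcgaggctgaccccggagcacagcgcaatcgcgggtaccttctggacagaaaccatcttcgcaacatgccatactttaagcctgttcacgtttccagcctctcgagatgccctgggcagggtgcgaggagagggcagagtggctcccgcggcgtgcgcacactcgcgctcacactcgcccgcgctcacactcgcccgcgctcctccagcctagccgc
The Gad1 window holds 1 GC box and 1 TATA box, both on the opposite strand. Dlx1 holds 1 GC box, Gabra4 holds 2, and neither string is in the Gabra5 or Gabrb1 window. A GC box was found for 15 of the 23 genes (65.2%) and in 35.7% of all 32851 windows. TATAAA was found for 5 of 23 genes (21.7%) and in 13.6% of all windows. A gene was counted if any window of it held the string, so these shares are per gene and the others per window. The homeodomain core TAATTA was found in Gabrg1 only among the 23 (4.35%), against 5.29% of all windows. The windows shown are rich in CpG, with 12 to 27 each against a median of 7 over all windows. These counts describe the letters only, and no binding was measured.

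The order of levels was taken in the RS libraries by FPKM, since only a value per length can be compared between genes. Gabbr1 was at the top with 91.4 and 91.6 FPKM, followed by Nlgn2 (56.6 and 60.6 FPKM), the adhesion protein that organises inhibitory postsynapses, Gabbr2 (52.8 and 53.3 FPKM) and Gabra5 (51.2 and 54.0 FPKM), whose subunit is mostly extrasynaptic and typical of the hippocampus. The ranges of Nlgn2 and Gabbr2 lay apart, whereas those of Gabbr2 and Gabra5 overlapped. Gad1, at 40.8 and 42.0 FPKM, stood above Gad2 at 28.2 and 28.5 FPKM. Gabrb1, Gabra3, Gabra2 and Gabra4 had means between 15.2 and 15.4 FPKM and overlapped one another. The lowest of the 28 were Dlx5, Sox6 and Dlx6, with Dlx6 at 1.27 and 1.30 FPKM.

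**Figure D2:**
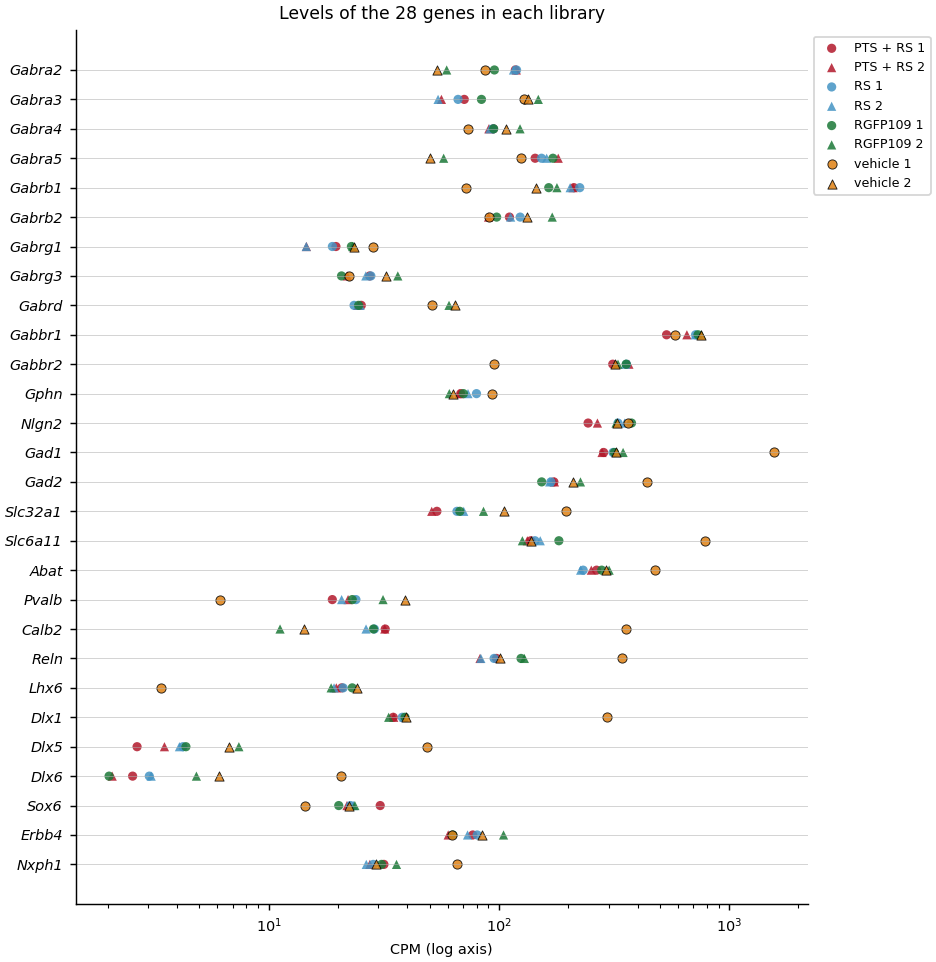
CPM (horizontal log axis) of the 28 genes (vertical axis, ordered by role) in each library, with colour for the group, circles for replicate 1 and triangles for replicate 2. Vehicle replicate 1 sits far to the right for Gad1, Slc6a11, Calb2, Dlx1 and Dlx5 and far to the left for Lhx6, Pvalb and Gabbr2.

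PTS + RS was compared with RS to ask how a stroke added to restraint stress is reflected in the cortex-labelled libraries. None of the 28 genes was called at an adjusted p under 0.05 by edgeR's quasi-likelihood test, in which 3.55% of the 17581 genes tested were called (521 higher and 103 lower). At an unadjusted p under 0.05 there were 2 of the 28 (7.14%), Nlgn2 and Slc32a1, beside 3139 of all tested genes (17.9%). DESeq2 called 1, Nlgn2, beside 2.47% of the genes it tested. The median log2 fold change of the 28 was -0.05 against 0.00 over all tested genes, and the 28 ran from -0.43 to 0.21.

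Nlgn2 was at 244 and 268 CPM in the PTS + RS libraries and at 329 and 352 CPM in the RS libraries. Both PTS + RS libraries lay below both RS libraries, and the log2 fold change was -0.41 (SE 0.08, adjusted p = 0.05003, just above the threshold). Slc32a1, the vesicular GABA transporter that marks GABAergic and glycinergic terminals, was at 53.8 and 51.1 CPM against 65.8 and 70.4 CPM. Its groups did not overlap either, with a log2 fold change of -0.38 (SE 0.08, adjusted p = 0.0650). The call of these 2 genes depended on the libraries used. Both passed by edgeR when either PTS + RS library was left out and missed the threshold when either RS library was left out. The share of all tested genes called rose and fell in the same way. With 1 library left out the log2 fold change ran from -0.48 to -0.35 for Nlgn2 and from -0.43 to -0.33 for Slc32a1. Where a group is left with 1 library, that library is assumed to vary like the others.

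Among the transcription factors, Dlx5 had the largest difference of the 28 on the log2 scale, -0.43 (SE 0.26, adjusted p = 0.439), from 2.69 and 3.53 CPM in the PTS + RS libraries and 4.25 and 4.10 CPM in the RS libraries. Dlx6, its neighbour on chromosome 6, was at 2.57 and 2.09 CPM against 3.04 and 3.09 CPM, a log2 fold change of -0.39 (SE 0.28, adjusted p = 0.515). These are the 2 genes with the lowest counts of the 28, and neither difference was past the threshold. Dlx1 was at -0.14 and Sox6, a regulator of parvalbumin and somatostatin interneurons, at 0.19 on the log2 scale.

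No subunit of the GABA-A receptor was called. The 9 log2 fold changes had a median of 0.01, with the 4 alpha subunits between -0.01 (Gabra4) and 0.07 (Gabra3), and Gabra5 at 0.05 (SE 0.11), a 95% interval of -0.22 to 0.32. Gabrb2 was the farthest at -0.23 (SE 0.11, adjusted p = 0.345), and it was called by edgeR without PTS + RS replicate 1 (adjusted p = 0.00690), where 9.7% of genes were called. Of the GABA-B pair, Gabbr1 was at -0.26 (SE 0.11, adjusted p = 0.291) and Gabbr2 at -0.07. Gabbr1 was at 535 CPM in PTS + RS replicate 1 and 655 CPM in replicate 2 against 715 and 712 CPM in the RS libraries, and it was called by edgeR without PTS + RS replicate 2 (adjusted p = 0.00120), where 14.6% of genes were called.

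The enzymes moved in both directions by small amounts, none past the threshold. Gad1 was at 285 and 281 CPM against 313 and 322 CPM (log2 fold change -0.17, adjusted p = 0.293), whereas Gad2 was at 173 and 174 CPM against 168 and 166 CPM (0.06, adjusted p = 0.736). The groups did not overlap for either enzyme, with PTS + RS lower for Gad1 and higher for Gad2. Abat, the GABA transaminase, was at 0.17 (adjusted p = 0.283) and Slc6a11, a mostly astrocytic GABA transporter, at -0.12 (adjusted p = 0.437). Of the interneuron markers, Calb2 was at 0.21 (adjusted p = 0.345) and Pvalb at -0.12 (adjusted p = 0.702). The scaffold Gphn was at -0.18 (adjusted p = 0.312).

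The groups did not overlap for 13 of the 28 genes (46.4%), 3 higher and 10 lower in PTS + RS, beside 50.2% of all tested genes (25.7% higher and 24.5% lower). In the same libraries all 12 microglial genes were higher in PTS + RS by the same test, with a median log2 fold change of 2.35 and sums of 1631 and 1397 CPM against 356 and 323 CPM, and 5 of 12 astrocyte genes were higher, with a median of 0.39. Choroid plexus genes summed to 1635 and 47 CPM against 1850 and 3853 CPM (0 of 10 called), and 12 pan-neuronal genes to 7587 and 8196 CPM against 8410 and 8042 CPM (0 of 12 called). Their part in the differences above was not tested. In bulk tissue fewer cells of a type and less RNA per cell cannot be told apart.

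**Figure D3:**
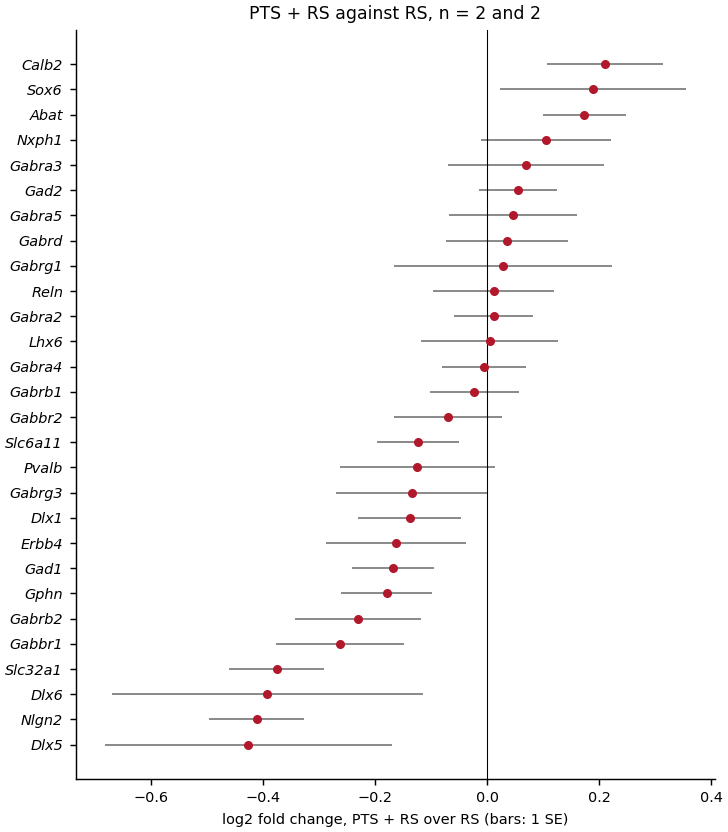
Log2 fold change of PTS + RS over RS (horizontal axis) for the 28 genes (vertical axis, sorted by value), with bars of 1 SE from edgeR and 2 libraries per group. Values run from 0.21 for Calb2 to -0.43 for Dlx5, and Nlgn2 and Slc32a1 have the shortest bars relative to their distance from 0.

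RGFP109 was compared with vehicle to ask what the inhibitor changed in PTS + RS mice. No gene of 17565 was called by edgeR, a percentage of 0, and so none of the 28 (adjusted p = 1.00 for each). At an unadjusted p under 0.05 there were 206 genes (1.17%) and 2 of the 28 (7.14%), Slc32a1 and Dlx6. DESeq2 called 1 gene (0.00354%), none of the 28. The fold changes were larger in size and rested largely on vehicle replicate 1, as the library values show. On the log2 scale 6 of the 28 differed by 1 or more, against none for PTS + RS and RS. The groups did not overlap for 6 of the 28 (21.4%), beside 26.6% of all tested genes.

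Calb2, the calcium-binding protein calretinin, was at 28.5 CPM in RGFP109 replicate 1 and 11.2 CPM in replicate 2, and at 356 CPM in vehicle replicate 1 and 14.3 CPM in vehicle replicate 2. Its log2 fold change of -3.22 (SE 1.48) came from the vehicle library at 356 CPM, and without it the value was 0.46. Dlx5 was at 4.38 and 7.43 CPM with RGFP109 and at 48.8 and 6.74 CPM with vehicle (log2 fold change -2.23, SE 0.96). Dlx1 was at 39.1 and 33.2 CPM with RGFP109 and at 294 and 39.4 CPM with vehicle (log2 fold change -2.20, SE 0.93). For Dlx5 and Dlx1 the high library was again vehicle replicate 1, and without it their log2 fold changes were -0.19 and -0.13. Dlx6 was at 2.03 and 4.86 CPM with RGFP109 and at 20.7 and 6.09 CPM with vehicle (log2 fold change -1.95, SE 0.74). With 1 library left out its log2 fold change ran from -2.71 to -0.81. Fits without vehicle replicate 1 set an amygdala-labelled vehicle library against RGFP109 libraries of both labels. Treatment and label cannot be told apart in them, so the kept sign of Dlx6 does not separate the 2. Within replicate 2, labelled amygdala on both sides, the log2 ratios were -0.35 for Calb2, 0.14 for Dlx5, -0.25 for Dlx1 and -0.33 for Dlx6, without a test.

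The whole GABA synthesis and transport group was highest in vehicle replicate 1. Gad1, the major GABA-synthesising enzyme, was at 1572 CPM there, 4.95 times the median of the other 7 libraries, which ran from 281 to 346 CPM. Slc6a11, which clears GABA into astrocytes, was at 785 CPM against 127 to 182 CPM. Gad2, the isoform enriched at terminals, was at 442 CPM against 153 to 226 CPM. For all 3 this library lay far outside the range of the rest. Slc32a1 was at 196 CPM against 51.1 to 106 CPM, and Abat at 476 CPM against 227 to 301 CPM. The ratio of Gad1 to Gad2 in FPKM was 2.74 in this library and 1.18 to 1.59 in the others. The log2 fold changes of RGFP109 over vehicle were accordingly -1.51 for Gad1, -1.58 for Slc6a11, -0.97 for Slc32a1 and -0.78 for Gad2. Without vehicle replicate 1, which leaves an amygdala-labelled vehicle library only, they were 0.04, 0.15, -0.47 and -0.15.

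In the opposite direction, Lhx6, which specifies interneurons of the medial ganglionic eminence, was at 3.41 CPM in vehicle replicate 1 against 18.7 to 24.1 CPM in the other 7 libraries. Pvalb, the marker of fast-spiking basket and chandelier cells, was at 6.14 CPM against 18.9 to 39.1 CPM. Gabbr2, the subunit of the GABA-B receptor that couples to the G protein, was at 95.6 CPM against 312 to 367 CPM, while its partner Gabbr1, at 582 CPM, lay inside the range of the others. The FPKM ratio of Gabbr2 to Gabbr1 was 0.191 in this library and 0.493 to 0.678 in the other 7. The adjoining subunit genes Gabra4 and Gabrb1, whose promoter windows are printed above, were both below every other library, at 73.4 and 72.4 CPM. On the log2 scale, RGFP109 over vehicle was 0.73 for Gabbr2, 0.66 for Gabrb1, 0.60 for Lhx6 and 0.27 for Pvalb. Without vehicle replicate 1 these values were 0.098, 0.24, -0.22 and -0.52 in that order, so that Lhx6 and Pvalb changed sign. The vehicle side was then labelled amygdala only, and treatment and label cannot be told apart in these values.

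In all, vehicle replicate 1 lay above the other 7 libraries for 13 of the 28 genes and below them for 6. Over the 16947 genes tested in both tables it lay above for 25.6% and below for 22.4%. The tables were scaled separately, and with all 8 libraries scaled together none of the 28 changed its place. The 13 also included Reln (341 CPM against 82.8 to 129 CPM), Dlx6, Nxph1, Gabrg1 and Gphn, and the 6 also included Sox6. The markers of the olfactory bulb that were high in this library moved with these genes, and their part was not tested.

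With 1 library a side, RGFP109 and vehicle were then set side by side within each replicate number, without a test and with intervals that cover counting error only. In replicate 1 the log2 ratios of the 28 ran from -3.64 (Calb2) to 2.76 (Lhx6), and 15 were at least 1 in size. In replicate 2, labelled amygdala, all 28 were under 0.5 in size, from -0.37 (Lhx6) to 0.36 (Gabrb2) with a median of 0.07. In replicate 2, where both libraries carried the same marker genes, Gad1 was at 346 and 321 CPM, Gad2 at 226 and 210 CPM, and Slc32a1 at 85.8 and 106 CPM with RGFP109 and vehicle in that order. Reln was at 129 and 101 CPM, and Pvalb at 31.4 and 39.1 CPM. No spread between replicates stands behind these last ratios.

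**Figure D4:**
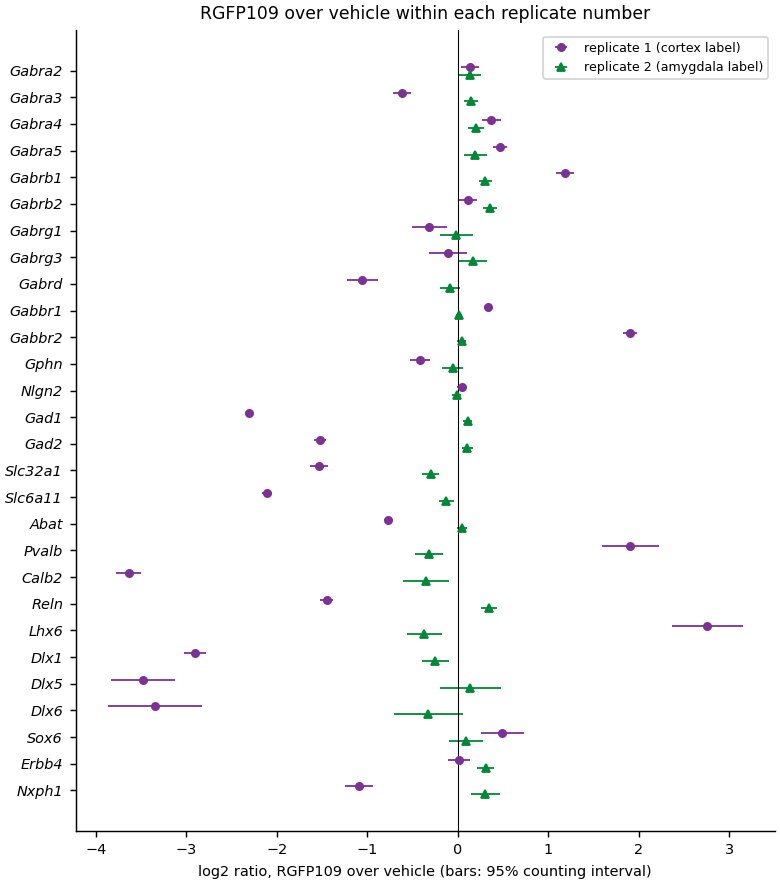
Log2 ratio of RGFP109 over vehicle (horizontal axis) for the 28 genes (vertical axis), with circles for the replicate 1 libraries (cortex label), triangles for the replicate 2 libraries (amygdala label) and bars for 95% counting intervals. Circles run from -3.64 to 2.76, and all 28 triangles lie within 0.5 of 0.

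The same 4 libraries allow amygdala-labelled to be set against cortex-labelled tissue, with 1 RGFP109 and 1 vehicle library on each side. No gene was called by edgeR (a percentage of 0 of 17565) and none of the 28, with 1970 genes (11.2%) and 7 of the 28 at an unadjusted p under 0.05. DESeq2 called 387 genes (1.37%), Gabra5 and Slc6a11 among them. The groups did not overlap for 15 of the 28, 9 higher and 6 lower in the amygdala-labelled pair, beside 44% of all tested genes (21.6% higher and 22.4% lower). The 3 largest log2 fold changes were those of Calb2 (-3.91, SE 1.22), Dlx1 (-2.20, SE 0.93) and Dlx5 (-1.91, SE 1.07), which rest on vehicle replicate 1, with the values already given. Without that library they were -1.15, -0.096 and 0.71 in that order. Gad1 at -1.50, Slc6a11 at -1.87 and Reln at -1.02 rest on it likewise, and without it they were 0.086, -0.45 and -0.10.

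Gabra5 did not depend on that library for its direction. It was at 57.6 CPM (RGFP109) and 50.3 CPM (vehicle) in the amygdala-labelled pair and at 172 and 124 CPM in the cortex-labelled pair, a log2 fold change of -1.46 (SE 0.21, adjusted p = 0.234 by edgeR and 9.3e-05 by DESeq2). The 4 PTS + RS and RS libraries were at 144 to 181 CPM. Gabra2, whose subunit is tied to the anxiolytic action of benzodiazepines, was at 59.4 and 53.9 CPM against 95.6 and 87.1 CPM (log2 fold change -0.69, SE 0.14, adjusted p = 0.290). Of these subunits the amygdala-labelled libraries were below every cortex-labelled library.

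Without vehicle replicate 1, leaving RGFP109 replicate 1 as the only cortex-labelled library, edgeR called 13 of the 28 (46.4%) beside 13.8% of 18613 genes, with 9 higher and 4 lower beside 8.27% and 5.51%. With only RGFP109 replicate 1 on the cortex side, all spread came from the amygdala-labelled pair, and none between cortex-labelled libraries was measured. Vehicle replicate 1 was singled out by its marker levels, given above. The calls therefore do not decide whether the labels differ, and only effect sizes follow. The fit with vehicle replicate 1 alone on the cortex side, given below, has the same limit. The 4 lower genes were Gabra5 (log2 fold change -1.66), Calb2 (-1.15), Gabra2 (-0.74) and Slc6a11 (-0.45). Of the 9 higher genes, 4 were subunits: Gabrd, the delta subunit of extrasynaptic receptors (1.36), Gabra3 (0.76), Gabrg3 (0.74) and Gabrb2 (0.65). The other 5 were Dlx6 (1.44), Pvalb (0.62), Erbb4, the neuregulin receptor of interneurons (0.60), Gad2 (0.52) and Slc32a1 (0.51). With all 4 libraries Gabrd was at 0.73, Gabrg3 at 0.68, Gabrb2 at 0.69, Gabra3 at 0.41, Pvalb at 1.27 and Erbb4 at 0.59, none past the threshold, while Dlx6 (-1.06), Gad2 (-0.45) and Slc32a1 (-0.46) had the opposite sign. Without RGFP109 replicate 1, which leaves vehicle replicate 1 as the cortex side, 24 of the 28 were called beside 28.7% of 18744 genes, and without either amygdala-labelled library none was.

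Against all 5 cortex-labelled libraries other than vehicle replicate 1, 4 of which are in the other table, the amygdala-labelled pair lay above for 14 of the 28 genes and below for 4, beside 14.7% and 16% of 16947 genes. Scaling all 8 libraries together moved none of the 28. The 4 below were Gabra5, Gabra2, Calb2 and Gphn. Gabrd was at 60.8 and 64.5 CPM in the pair against 23.5 to 25.3 CPM, and Gabra3 at 148 and 134 CPM against 54.5 to 84.0 CPM. Gad1 (346 and 321 CPM) overlapped with the 5 libraries at 281 to 322 CPM, whereas Gad2 (226 and 210 CPM) lay above them at 153 to 174 CPM. Striatal and hippocampal genes, given above, split the libraries in the same way, and their part was not tested.

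Among the 4 alpha subunits of the 28 genes the balance differed between the libraries by label. Of the summed FPKM of Gabra2 to Gabra5, Gabra5 took 49.6% to 57.6% in the 5 cortex-labelled libraries other than vehicle replicate 1, 42.6% in vehicle replicate 1, and 22.7% and 22.3% in the amygdala-labelled pair. Gabra3, whose subunit is prominent in monoaminergic and amygdala neurons, took 13.58% to 19.96% in the 5 libraries, 33.5% in vehicle replicate 1 and 44.4% and 45.1% in the pair. Gabra4 took 12.29% to 15.99% in the cortex-labelled libraries and 23.8% and 23.3% in the pair. Gabra2 took 11.6% to 15.9% in the cortex-labelled libraries and 9.11% and 9.31% in the pair. The RGFP109 and the vehicle library of the pair differed by under 1 percentage point for each of the 4. These shares are ratios within a library and show unequal change, not which subunit changed.

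**Figure D5:**
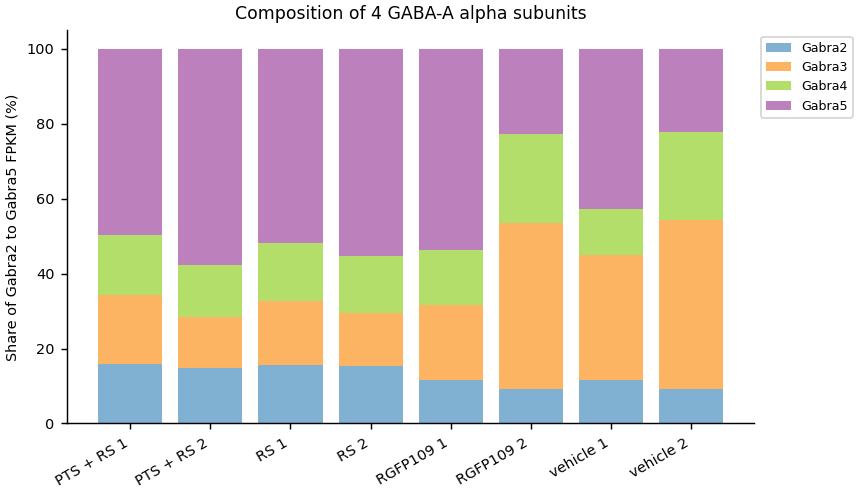
Share of each alpha subunit in the summed FPKM of Gabra2 to Gabra5 (vertical axis, %) in each library (horizontal axis). Gabra5 takes 49.6% to 57.6% in the PTS + RS, RS and RGFP109 1 libraries and 22.3% to 22.7% in the amygdala-labelled RGFP109 2 and vehicle 2 libraries, where Gabra3 takes 44.4% and 45.1%.

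Of 29 other genes of the GABA system (further subunits, transporters, and receptor partners), 24 were tested for PTS + RS against RS and none was called by edgeR, with a median log2 fold change of -0.09. Of 29 other interneuron genes, 28 were tested and none was called, with a median of 0.03. At an unadjusted p under 0.05 there were 6 of the 52 genes tested over both lists (11.5%), beside the 17.9% of all tested genes. For RGFP109 against vehicle and for the tissue labels, 25 genes of the GABA system and 29 interneuron genes were tested, and none was called by edgeR. Of these 54 genes, 4 (7.41%) and 10 (18.5%) were under an unadjusted p of 0.05, beside 1.17% and 11.2% of all tested genes.

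Some of these genes share bases with others. Dlx6os1, antisense to Dlx6, had 203 to 426 counts in 7 libraries and 1509 in vehicle replicate 1. Dlx1as had 57 to 97 counts and 162 in vehicle replicate 1. Whether counting used the strand is not given in the sources used here, so reads of Dlx1, Dlx6, Gad1, Gabra4 and Gabrb1 that fall on the shared bases cannot be told apart from those of their partners.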

How the data were processed

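RNA-seq of mouse brain was analysed in 8 libraries, grouped by the labels, with 2 per group. By the study's methods and the labels, the authors used STAR 2.4.0 for alignment to GRCm38 and HTSeq 0.6.1 for counting, and they deposited the raw count and the FPKM of each gene in each library. The labels and the paper name different library kits. The authors also deposited normalized group means, log2 fold changes and p-values, which were not used here, and 8 per-library columns of the RGFP109 table (normalized values, and a block of 38 genes) were not used either.

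The members and lists were chosen with earlier results of these data known. Genes were matched by symbol. Counts were filtered with filterByExpr of edgeR 4.0.16 (R 4.3.3) at its defaults, scaled by TMM and tested with the quasi-likelihood fit of edgeR, with p-values adjusted over all tested genes (Benjamini-Hochberg). A gene was called at an adjusted p under 0.05, with no fold limit. Standard errors were derived from the quasi-likelihood F statistic. The code was tested on simulated data. Alternatives were other scalings, no filter, DESeq2 1.42.0, a limit of 1 on the log2 fold change, blocks, leaving out each library, and the deposited FPKM. Counts differed between the replicates of each group by more than sampling noise, so the spread between replicates limits precision more than depth. Replicate numbers of RGFP109 and vehicle also mark the tissue label, and deviations from the group mean correlated at r = 0.30 between libraries with the same number, across genes.

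Library values were given for called members and the 3 with the largest fold change in each comparison, and other members singled out were chosen after their values were seen. Figures were drawn with matplotlib 3.10.9 in Python 3.11.15. No gene set test was run. In each of the 2 lists of other genes, 1 gene is not reported here, and the counts leave it out.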

Additional observations from a re-analysis of the deposited data

Results flagged for a closer look

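In each group only 2 libraries are at hand, so no library was tested as an outlier within its group. For 7 of the 28 genes RGFP109 over vehicle had opposite signs in the cortex-labelled replicate 1 and the amygdala-labelled replicate 2, each beyond its counting interval, and the difference between the labels was not tested. The log2 ratios were -2.31 in replicate 1 and 0.11 in replicate 2 for Gad1, -1.53 and 0.11 for Gad2, and -0.62 and 0.15 for Gabra3. They were -1.45 and 0.35 for Reln and -1.09 and 0.30 for Nxph1, a secreted ligand of neurexins. For Pvalb they were 1.91 and -0.32, and for Lhx6 2.76 and -0.37. In replicate 1 all 7 rest on vehicle replicate 1, the library with 1907 CPM of olfactory bulb genes.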

How the results depend on the processing

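For PTS + RS against RS, 624 genes were called, and 1835 without the filter on low counts, 389 with a limit of 1 on the log2 fold change, and between 371 and 2691 with 1 library left out. Of the 28, 0 were called, but 1 with total counts only (beside 3.66% of all genes), 2 without the filter (6.1%), 1 by DESeq2 (2.47%) and 0 to 5 with 1 library left out, the 5 being without PTS + RS replicate 2 (14.6%). The replicate numbers of PTS + RS and RS are only names (deviations of same-numbered libraries correlated at r = 0.04), and with them as a replicate block 915 genes (5.2%) and 1 of the 28 (Nlgn2, adjusted p = 0.0265 by edgeR) were called.

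For RGFP109 against vehicle, 0 genes were called, with 1 by DESeq2 and 0 to 93 with 1 library left out (0 to 2 of the 28). The 93 (0.5% of all tested genes) and the 2, Gad1 and Dlx1, came without vehicle replicate 2. That fit leaves vehicle replicate 1 as the only vehicle library, so no spread between vehicle libraries was measured. Its calls therefore do not decide whether RGFP109 changed these genes. The replicate block, in which the number is also the tissue label, called 0 genes and so changed no call. For the tissue labels, 0 genes were called, with 1 by total counts only, 13 without the filter, 387 by DESeq2 (2 of the 28) and 0 to 5383 with 1 library left out (0 to 24 of the 28). Treatment as a block called 0.

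With 1 library left out, the log2 fold changes of 14, 18 and 11 of the 28 genes changed sign in the 3 comparisons in that order. For PTS + RS over RS they ran from -0.11 to 0.22 (Gabra3), -0.040 to 0.024 (Gabra4), -0.13 to 0.20 (Gabra5), -0.19 to 0.041 (Gabbr2) and -0.072 to 0.41 (Sox6). The other 9 were Erbb4, Gabra2, Gabrb1, Gabrd, Gabrg1, Gabrg3, Lhx6, Nxph1 and Reln, within -0.35 to 0.22. For RGFP109 over vehicle they ran from -4.16 to 0.46 (Calb2), -2.34 to 0.15 (Slc6a11), -2.23 to 0.040 (Gad1), -1.42 to 0.32 (Reln), -0.52 to 2.16 (Pvalb) and -0.22 to 2.62 (Lhx6). The other 12 were Erbb4, Gabbr1, Gabra2, Gabra3, Gabra5, Gabrb2, Gabrd, Gabrg3, Gphn, Nlgn2, Nxph1 and Sox6, within -1.23 (Gabrd) to 1.18 (Gabra5). For amygdala over cortex labels they ran from -2.78 to 0.71 (Dlx5), -1.92 to 1.44 (Dlx6), -2.23 to 0.086 (Gad1), -1.01 to 0.52 (Gad2) and -1.03 to 0.51 (Slc32a1). The other 6 were Abat, Gabbr2, Gabrb1, Gabrg1, Lhx6 and Nxph1, within -1.01 (Nxph1) to 2.65 (Lhx6). The cause was not tested. Over all 28 genes, leaving out 1 library changed the sign of 19, 23 and 11 of 112 values in the 3 comparisons in that order, and the other settings changed 1, 1 and 0 of 168. Ratios of group mean FPKM differed from those of CPM by less than the spread between replicates. The joint scaling of 8 libraries was chosen after seeing the data.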

Other observations

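Other interneuron genes, chosen after their values were seen, stood out in the same libraries. In vehicle replicate 1, Sp8, a transcription factor of olfactory bulb interneurons, was at 126 CPM against 1.0 to 2.6 CPM in the other 7 libraries, and Dlx2 was at 68.0 CPM against 4.6 to 7.3 CPM. Sst, the peptide somatostatin that marks an Lhx6-dependent class, was at 42.9 CPM there against 140 to 211 CPM. Npy had a mean of 47.3 CPM (SD 7.84) in the vehicle libraries against means of 25.2 to 32.2 CPM in the other groups. That SD puts both vehicle libraries above the other group means, so Npy was not particular to vehicle replicate 1. Over all genes tested in both tables, vehicle replicate 1 lay above the other 7 libraries for 25.6% and below them for 22.4%. In the amygdala-labelled pair, Lamp5, a marker of neurogliaform cells, was at 137 and 139 CPM against 29.0 to 51.4 CPM in the 6 cortex-labelled libraries, and Tac1, the precursor of substance P, was at 39.0 and 44.0 CPM against 6.4 to 9.4 CPM. Nos1, nitric oxide synthase of neurons, was lower in the pair, at 71.0 and 66.7 CPM against 124 to 146 CPM. Striatal genes, given above, were also high in that pair, and their part in these levels was not tested.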
